A study of Mus musculus with 9 samples.

Results

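The genes of the proteasome were compared between 3 groups of splenic T cells, with the subunits of the immunoproteasome set against those of the constitutive particle. The members were all protein-coding genes in the deposited count table whose symbol begins with Psma, Psmb, Psmc, Psmd, Psme, Psmf or Psmg followed by a digit. There were 50 such genes among 49671 gene rows, of which 21811 were protein-coding. They hold subunits of the 20S core and the 19S cap, activators, 1 inhibitor and assembly chaperones. Another 4 pseudogenes with symbols of this form were left out. One member, Psmc3ip, carries the name only: its protein, HOP2, acts in meiotic recombination. Of the 50 genes, 47 had enough counts to be tested.

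All cells came from the spleens of female F1 mice with a C57BL/6 mother, heterozygous for a deletion of Xist, and a castaneus father, a cross in which X inactivation is skewed. CD3+ T cells were taken from the spleen on enrichment columns. Unstimulated cells went into TRIzol directly, stimulated cells were cultured for 48 hours on plate-bound anti-CD3 (1 µg/ml) with soluble anti-CD28 (10 µg/ml), and the inhibitor group was stimulated alike in the presence of 2.5 µM IMD-0354, which blocks IKK-beta, the kinase that releases NF-kB. Each group had 3 libraries. No vehicle is named for the stimulated cultures and no group was cultured without stimulation, so that culture and stimulation cannot be told apart. Sample titles count the libraries within a group as biological replicates, but which mouse each one was taken from is not given. The p-values therefore reflect only how far these samples differ among themselves, and that may be technical.

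The proteasome degrades proteins tagged with ubiquitin. Its 20S core is a barrel of stacked rings, with alpha subunits at the gate and beta subunits inside, of which the products of Psmb5, Psmb6 and Psmb7 cut peptide bonds with chymotrypsin-like, caspase-like and trypsin-like preference. The 19S cap binds ubiquitin chains, removes them and threads the substrate into the core with a ring of ATPases. In cells of the immune system the interferon-inducible subunits Psmb8 (LMP7), Psmb9 (LMP2) and Psmb10 (MECL1) can replace Psmb5, Psmb6 and Psmb7 in newly built cores, which favours peptides that bind MHC class I. The PA28 activator, made of Psme1 and Psme2, is inducible in the same way. Activated T cells make and degrade protein at a high rate.

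Total counts ranged from 34009988 to 56221174 per library. Levels are in CPM after TMM scaling, given for libraries 1 to 3 of a group in that order or as mean ± SD (n = 3). Fold changes are log2 values, with an approximate SE after ±, from edgeR's quasi-likelihood test, and a gene was called, and is said to have risen or fallen, where its Benjamini-Hochberg adjusted p over the 18374 genes tested was below 0.05. Inhibitor library 1 stood apart, with 30106 genes detected where the other 8 libraries had 20547 to 23223. After TMM scaling it was the lowest of its group for 38 of the 47 members tested. That standing depends on the scaling. As a share of the unscaled counts, the members summed to 0.3891%, 0.3882% and 0.4150% in inhibitor libraries 1 to 3. Summed markers of B cells (8 genes) were 981 to 2796 CPM in unstimulated, 71.2 to 80.6 CPM in stimulated and 149 to 154 CPM in inhibitor libraries, and those of myeloid and dendritic cells (10 genes) were 1156 to 2329, 45.3 to 48.0 and 89.7 to 119 CPM. NK cell markers (6 genes) were 318 to 343, 26.7 to 32.2 and 33.8 to 41.6 CPM, and erythroid and platelet markers (7 genes) were 38.4 to 520, 4.06 to 6.93 and 4.57 to 12.6 CPM. None of these markers was at 0 in a whole group. The 8 T cell markers, against which the labelled cell type was checked, summed to 1500 to 2282, 1824 to 1980 and 1771 to 1864 CPM. The unstimulated libraries thus held RNA of other blood cells that was largely missing after culture. Its part in the differences from the unstimulated group was not tested, and in bulk samples fewer cells of a type and less RNA per cell cannot be told apart. In each inhibitor library the B cell sum, the myeloid and dendritic sum and the NK cell sum all lay above the stimulated range. The single markers were less uniform. Against stimulated cells, 4 of the 8 B cell markers rose and 0 fell with the inhibitor. Of the 10 myeloid and dendritic markers 6 rose and 1 fell, and of the 6 NK cell markers 1 rose and 4 fell. The part of such RNA in the comparison of inhibitor and stimulated cells was not tested either.

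Proteasome transcripts made up a larger part of the RNA after stimulation, and a part in between with the inhibitor. Summed over the members, the level was 2232 ± 61.9 CPM in unstimulated, 5383 ± 69.8 CPM in stimulated and 4007 ± 400.2 CPM in inhibitor libraries, and the ranges of the 3 groups did not overlap. Between stimulated and unstimulated cells 45 of the 47 tested members rose and 0 fell by edgeR, against 32.0% and 34.0% of all tested genes. DESeq2 and limma voom also had 0 that fell, and at an unadjusted p below 0.05 the number was 0 too. The exceptions were Psmb10 and the inhibitor gene Psmf1, which did not pass the test. The median log2 fold change of the members was 1.41, with quartiles at 1.02 and 1.69, while the median of all genes was -0.05 with quartiles at -1.12 and 0.86.

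With the inhibitor added to the stimulated culture, 36 members fell, 2 rose (Psme1 and Psme4) and 9 were not called. Of all tested genes, 22.8% fell and 21.7% rose in this comparison. The members' median log2 fold change was -0.57 with quartiles at -0.71 and -0.32, and that of all genes was 0.03. Without inhibitor library 1 the members' median was -0.42. Compared with unstimulated cells, the inhibitor group still had 42 members higher, 1 lower (Psmb10) and 4 not called (Psmd4, Psmd5, Psmd9 and Psmf1), beside 26.3% of all genes higher and 26.1% lower, and the members' median was 0.88. The 3 comparisons share their groups of libraries and are not independent of each other.

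**Figure D1:**
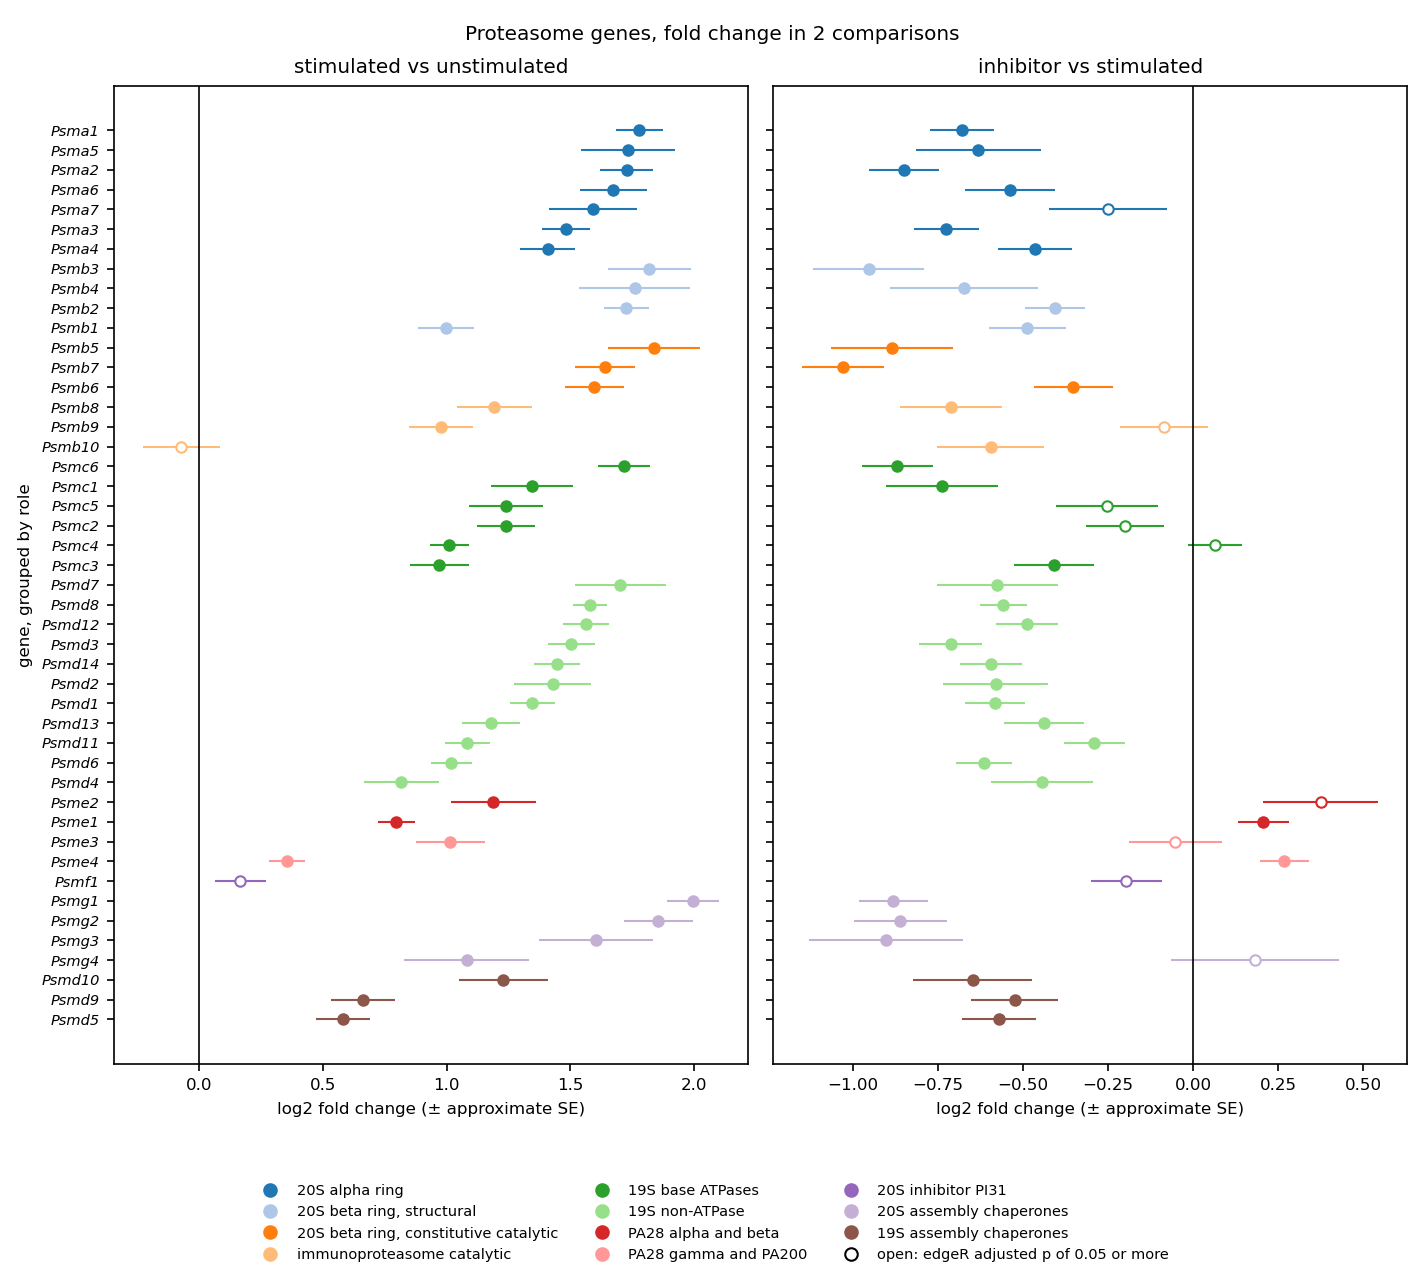
Log2 fold change (x axis, bars show the approximate SE) of each proteasome gene with a role in the particle, grouped by role, in stimulated against unstimulated (left) and inhibitor against stimulated (right) libraries; open points were not called by edgeR. Left, every point except those of Psmb10 and Psmf1 is filled and lies to the right of 0; right, most points lie to the left, with Psme1 and Psme4 filled on the right side.

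The rings of the core are described first. All 7 tested alpha subunits rose on stimulation, with a median log2 fold change of 1.67. Psma1 had the largest change of the ring: its level was 38.2, 48.0 and 42.3 CPM in unstimulated libraries, 155, 137 and 149 CPM in stimulated libraries and 92.0, 90.1 and 93.4 CPM with the inhibitor. The groups were apart without overlap, with a log2 fold change of 1.78 ± 0.10 on stimulation (edgeR adjusted p = 2.18e-07) and -0.68 ± 0.09 with the inhibitor (adjusted p = 2.84e-04). Psma4 had the smallest change on stimulation, from 45.2, 56.6 and 46.7 CPM to 141, 127 and 127 CPM (1.41 ± 0.11, edgeR adjusted p = 2.29e-06), and was at 86.2, 94.1 and 106 CPM with the inhibitor.

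With the inhibitor 6 of the 7 alpha subunits fell (median -0.63). Psma2 fell the most of them, from 196, 173 and 182 CPM to 86.5, 108 and 111 CPM (-0.85 ± 0.10, edgeR adjusted p = 1.35e-04), and its 3 groups were separate, with unstimulated libraries at 52.9, 54.5 and 58.8 CPM. Psma7 was not called (-0.25 ± 0.17, edgeR adjusted p = 0.269). Its inhibitor libraries were spread widely, at 88.3, 137 and 158 CPM, and 1 of them lay within the stimulated range of 145 to 165 CPM. It had risen on stimulation from 52.9, 50.1 and 48.2 CPM. The fall of Psma5 (-0.63 ± 0.18, edgeR adjusted p = 0.0185) was lost without stimulated library 3 (adjusted p = 0.0541) or inhibitor library 2 (adjusted p = 0.0579).

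Although the ring holds its subunits in equal number, their transcripts did not stand at equal levels. Per kilobase of the principal transcript, Psma7 was highest and Psma5 lowest in each group, and the ratio of the 2 was 3.94 in unstimulated, 3.57 in stimulated and 4.65 in inhibitor libraries. The order depended on the length taken. With the union of all annotated exons Psma6 was highest in each group, and the ratio of Psma7 to Psma5 was 1.25, 1.13 and 1.48.

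The structural beta subunits, which shape the inner rings without cutting, all 4 rose on stimulation (median 1.74) and fell with the inhibitor (median -0.58). Psmb3 had both the largest rise and the largest fall of them. Its level was 37.5, 39.0 and 37.3 CPM in unstimulated, 141, 131 and 130 CPM in stimulated and 48.7, 75.7 and 83.1 CPM in inhibitor libraries, with log2 fold changes of 1.82 ± 0.17 (edgeR adjusted p = 6.47e-06) and -0.95 ± 0.16 (adjusted p = 0.00104). No library of 1 group reached another, but inhibitor library 1 lay much nearer to the unstimulated cells than the other two did.

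Psmb1 changed least of the structural subunits on stimulation, from 89.5, 84.8 and 90.2 CPM to 189, 161 and 178 CPM (1.00 ± 0.11, edgeR adjusted p = 3.07e-05), and was at 103, 135 and 138 CPM with the inhibitor. Psmb2 had the smallest fall with the inhibitor, from 120, 108 and 115 CPM to 82.7, 84.0 and 92.1 CPM (-0.41 ± 0.09, edgeR adjusted p = 0.00412), and had been at 34.5, 37.5 and 31.5 CPM in unstimulated cells. The groups did not overlap for either gene. The fall of Psmb4 (-0.67 ± 0.22, edgeR adjusted p = 0.0295) was the least certain, since it was lost without stimulated library 2 (adjusted p = 0.0659), stimulated library 3 (adjusted p = 0.0933) or inhibitor library 2 (adjusted p = 0.0546).

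The 3 constitutive catalytic genes all rose on stimulation (median 1.64) and fell with the inhibitor (median -0.89). Psmb5, the chymotrypsin-like subunit (chr14:54614119-54618022, mm10, minus strand), was at 11.1, 12.3 and 12.8 CPM in unstimulated, 41.0, 41.6 and 46.9 CPM in stimulated and 16.6, 24.3 and 29.1 CPM in inhibitor libraries. Psmb6, the caspase-like subunit (chr11:70525367-70527858, plus strand), was at 37.4, 37.3 and 41.1 CPM, 134, 103 and 113 CPM, and 79.7, 94.7 and 100 CPM. Psmb7, the trypsin-like subunit (chr2:38588036-38644087, minus strand), was at 50.0, 55.5 and 45.9 CPM, 162, 159 and 151 CPM, and 63.1, 81.4 and 86.6 CPM. In all 3 genes every stimulated library lay above every other library, and every inhibitor library above every unstimulated one.

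On stimulation the log2 fold change was 1.84 ± 0.19 for Psmb5 (edgeR adjusted p = 1.24e-05), 1.60 ± 0.12 for Psmb6 (adjusted p = 1.64e-06) and 1.64 ± 0.12 for Psmb7 (adjusted p = 1.59e-06). With the inhibitor Psmb7 fell by 1.03 ± 0.12 on the log2 scale (edgeR adjusted p = 1.03e-04), the largest fall among the subunits of the particle, and Psmb5 by 0.89 ± 0.18 (adjusted p = 0.00283). The fall of Psmb6 was smaller (-0.35 ± 0.12, edgeR adjusted p = 0.0318). It was lost without stimulated library 1 (adjusted p = 0.121), stimulated library 3 (0.0623), inhibitor library 1 (0.105) or inhibitor library 2 (0.0660), and under upper-quartile scaling (0.123). The exons of Psmb7 overlap those of Nek6 on the other strand by 405 bases, and since no strand setting is given, some of its counts may be those of Nek6.

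The 3 inducible catalytic genes had no single pattern. Psmb8 (chr17:34197721-34201454, plus strand), the counterpart of Psmb5, was at 125, 91.9 and 109 CPM in unstimulated, 236, 251 and 257 CPM in stimulated and 118, 161 and 176 CPM in inhibitor libraries. It rose on stimulation (1.19 ± 0.15, edgeR adjusted p = 6.25e-05) and fell with the inhibitor (-0.71 ± 0.15, adjusted p = 0.00346). Its stimulated libraries lay apart from all others, while inhibitor library 1 lay within the unstimulated range. The difference between inhibitor and unstimulated cells (0.48 ± 0.15, edgeR adjusted p = 0.0208) was lost without unstimulated library 2 (adjusted p = 0.0689), inhibitor library 2 (0.0720) or inhibitor library 3 (0.0906), and with a filter at a mean of 10 CPM (0.0563).

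Psmb9 (chr17:34181987-34187764, minus strand), the counterpart of Psmb6, was at 59.2, 53.3 and 58.3 CPM in unstimulated, 100, 113 and 123 CPM in stimulated and 84.8, 113 and 119 CPM in inhibitor libraries. It rose on stimulation (0.98 ± 0.13, edgeR adjusted p = 8.66e-05). Its stimulated and inhibitor libraries overlapped, and it was not called between them (-0.09 ± 0.13, edgeR adjusted p = 0.620). The sign of that difference turned without inhibitor library 1 (0.048). The exons of Psmb9 and Tap1 overlap on opposite strands by 212 bases, so a part of these counts may be those of Tap1, which held 101659 counts over all libraries against 38095 for Psmb9.

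Psmb10 (chr8:105935735-105938444, minus strand), the counterpart of Psmb7, was the only one of the 6 tested catalytic genes without a rise. Its level was 38.3, 33.4 and 41.6 CPM in unstimulated and 31.8, 37.7 and 38.3 CPM in stimulated libraries, which overlapped (-0.07 ± 0.15, edgeR adjusted p = 0.693). With the inhibitor it was at 18.9, 23.9 and 28.4 CPM, below every library of both other groups. It fell against stimulated cells (-0.60 ± 0.16, edgeR adjusted p = 0.0111) and against unstimulated cells (-0.67 ± 0.16, adjusted p = 0.00474).

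**Figure D2:**
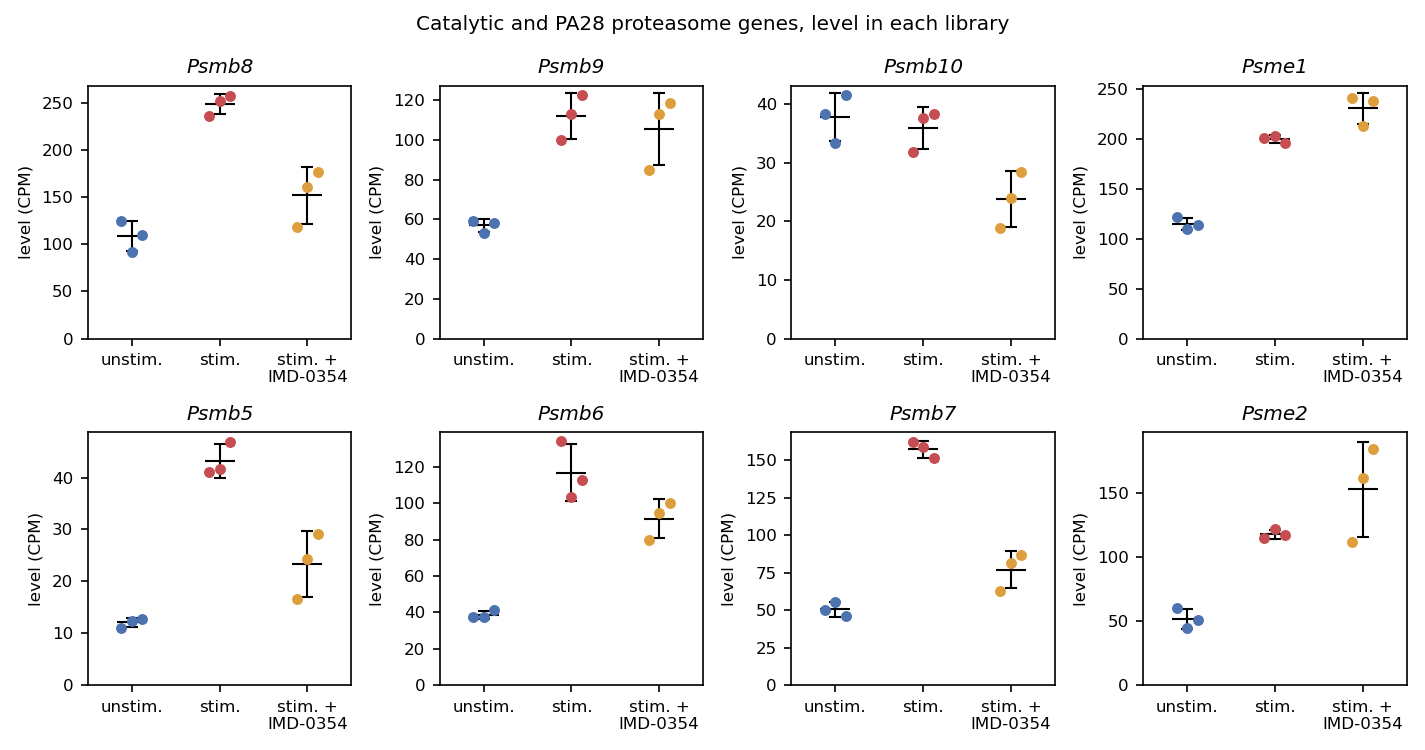
Level (CPM, y axis from 0, scaled for each gene) of the 3 inducible and 3 constitutive catalytic genes and of the 2 PA28 genes in each library; points are libraries, bars show mean ± SD (n = 3). The stimulated libraries lie highest for Psmb8, Psmb5, Psmb6 and Psmb7, while Psmb10 lies lowest with the inhibitor and Psme1 highest.

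The balance of each inducible gene with its constitutive partner is a ratio within a library, which no scaling between libraries can move. It was taken per kilobase of the principal transcript. Psmb8 made up 86.2%, 80.5% and 82.5% of its pair with Psmb5 in unstimulated, 76.1%, 77.0% and 75.2% in stimulated and 79.7%, 78.5% and 77.0% in inhibitor libraries. Psmb9 made up 48.3%, 45.7% and 45.6% of its pair with Psmb6, then 30.6%, 39.3% and 39.1%, and 38.6%, 41.4% and 41.1%. Psmb10 made up 40.4%, 34.7% and 44.5% of its pair with Psmb7, then 14.8%, 17.4% and 18.3%, and 21%, 20.6% and 22.5%. In all 3 pairs the inducible share was lower in every stimulated library than in every unstimulated one, although Psmb8 and Psmb9 themselves had risen. The unstimulated libraries also held RNA of other blood cells, and its part in these shares was not tested.

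On the log2 scale the ratio of stimulated to unstimulated cells differed by -0.64 ± 0.18 (SE) for Psmb8 to Psmb5, by -0.62 ± 0.19 for Psmb9 to Psmb6 and by -1.72 ± 0.20 for Psmb10 to Psmb7. Each had a two-sided exact permutation p of 0.1, the smallest that 3 against 3 libraries allow, and 0.113 after Benjamini-Hochberg adjustment over the 9 ratio comparisons, so none could pass 0.05. Between inhibitor and stimulated cells the ratios were higher by 0.19 ± 0.08, 0.25 ± 0.19 and 0.43 ± 0.12. The exact permutation p was 0.1 for the first and the last, and 0.3 for Psmb9 to Psmb6, whose libraries overlapped.

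Compared with unstimulated cells, the inhibitor group was lower in all 3 ratios, by 0.45, 0.36 and 1.28 on the log2 scale (exact permutation p = 0.1 each). The level of a share depends on the length taken for each gene. With the union of all annotated exons the mean share of Psmb10 was 59.9% in unstimulated, 31.4% in stimulated and 38.1% in inhibitor libraries, in place of 39.9%, 16.8% and 21.4%, while the differences in log2 ratio between groups stay the same by construction. The transcripts show the supply of subunits and not the make-up of the particles.

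**Figure D3:**
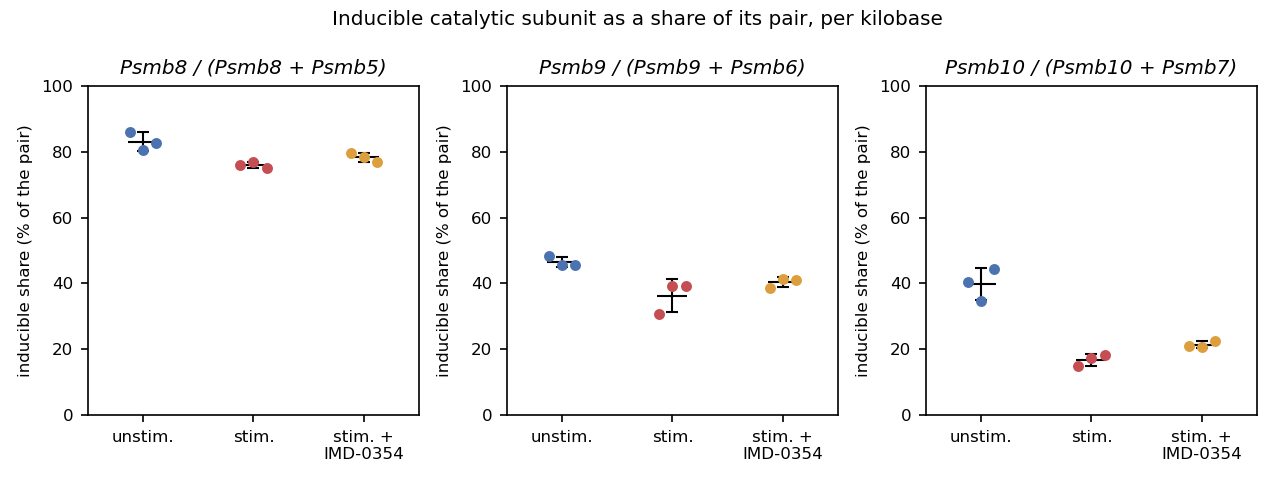
Inducible catalytic gene as a share of its pair (%, per kilobase of the principal transcript, y axis from 0 to 100) in each library; points are libraries, bars show mean ± SD (n = 3). The stimulated libraries lie below the unstimulated ones in each panel, by the most for Psmb10 (16.8% ± 1.81 against 39.9% ± 4.89).

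The sequence before the start is shown for Psmb5 and Psmb10, the catalytic genes with the highest and the lowest fold change on stimulation, and for Psmb6. The letters are RefSeq's, on GRCm38.p6 (mm10), 5′ to 3′ on the gene's own strand, without any base annotated as exonic. Capitals mark a match to the core of the antioxidant response element, TGACNNNGC, the kind of element bound by NRF1 (Nfe2l1), which is known for driving proteasome genes. The other motifs searched on both strands were the core of the interferon-stimulated response element, TTCNNNGAA (the interferon-gamma activated site) and the kappa-B consensus of NF-kB. They have no match in these 3 stretches. CCAAT was also searched and is not marked, and no marked matches overlap.
Psmb5 (chr14:54618023-54618245, minus strand): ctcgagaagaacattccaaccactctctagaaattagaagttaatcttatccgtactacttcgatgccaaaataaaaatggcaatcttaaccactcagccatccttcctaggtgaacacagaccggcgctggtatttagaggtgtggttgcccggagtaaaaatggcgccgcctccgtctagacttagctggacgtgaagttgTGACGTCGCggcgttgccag
Psmb6 (chr11:70525107-70525356, plus strand): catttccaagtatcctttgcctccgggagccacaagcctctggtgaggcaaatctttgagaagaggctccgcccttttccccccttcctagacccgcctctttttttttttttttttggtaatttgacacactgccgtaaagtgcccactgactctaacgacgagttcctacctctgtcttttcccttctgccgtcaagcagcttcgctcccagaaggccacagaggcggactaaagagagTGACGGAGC
Psmb10 (chr8:105938445-105938642, minus strand): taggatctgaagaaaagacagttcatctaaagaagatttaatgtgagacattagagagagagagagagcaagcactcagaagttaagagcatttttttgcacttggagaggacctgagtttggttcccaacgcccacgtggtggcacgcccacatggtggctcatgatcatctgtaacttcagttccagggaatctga

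RefSeq promoters were at hand for 42 of the 50 members, and the 250 bases before each start were searched. TGACNNNGC was found in 5 of them (Psmb5, Psmb6, Psmc6, Psmd12 and Psmd9), or 11.9%, against 11.5% of 27025 genes. The core of the interferon-stimulated response element was found in 3 (Psmb3, Psmd4 and Psmd9), or 7.14% against 3.46%, and TTCNNNGAA in 2 (Psmb8 and Psmg1), or 4.76% against 8.13%. The kappa-B consensus had a match in 6 (Psma6, Psma7, Psmd11, Psmd12, Psmd13 and Psme4), or 14.3% against 8.23%, and CCAAT in 15, or 35.7% against 37.5%. In Psmb8 the match (chr17:34198098-34198106) lay before RefSeq's start but inside an exon of a longer transcript that GENCODE annotates. The kappa-B match of Psmd13 was also exonic, since no base of its window was free of annotated exons. Those of Psma7 and Psme4 lay outside the longest run of bases not annotated as exonic. For a short motif a match is a description of the letters and not a site, and a window without a match says nothing of the factor.

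The 19S cap is described next. Its 6 ATPases, which unfold the substrate, all rose on stimulation (median 1.24). Psmc6 changed most: its level was 49.6, 47.8 and 51.2 CPM in unstimulated, 191, 148 and 150 CPM in stimulated and 93.5, 85.6 and 88.5 CPM in inhibitor libraries. It rose by 1.72 ± 0.11 (edgeR adjusted p = 4.75e-07) and with the inhibitor fell by 0.87 ± 0.10 (adjusted p = 1.18e-04), with no overlap between groups. Psmc3 changed least on stimulation, from 54.6, 56.3 and 52.9 CPM to 106, 106 and 110 CPM (0.97 ± 0.12, edgeR adjusted p = 5.04e-05), and was at 64.8, 83.2 and 93.8 CPM with the inhibitor. Its exons overlap those of Slc39a13 on the other strand by 215 bases.

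With the inhibitor only 3 of the 6 ATPases (Psmc1, Psmc3 and Psmc6) fell, and the other 3 were not called. Psmc4 stood at the far end: it rose on stimulation from 40.3, 46.8 and 43.9 CPM to 87.0, 88.0 and 89.1 CPM (1.01 ± 0.08, edgeR adjusted p = 2.28e-06) and was at 87.5, 93.1 and 95.5 CPM with the inhibitor. Stimulated and inhibitor libraries overlapped there, at a difference of 0.06 ± 0.08 (edgeR adjusted p = 0.541). Psmc2 and Psmc5 were lower by 0.20 ± 0.11 (edgeR adjusted p = 0.186) and 0.25 ± 0.15 (adjusted p = 0.195), also with overlap. The call of Psmc3 was lost without stimulated library 3 (adjusted p = 0.0586).

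The spread among the levels of the 6 ATPases, which sit side by side in 1 ring, also depended on the length taken. Per kilobase of the principal transcript the highest was 1.56 times the lowest in unstimulated, 1.44 times in stimulated and 1.95 times in inhibitor libraries. With the union of all annotated exons it was 2.49, 2.40 and 2.46 times, against 2.62, 2.77 and 3.15 times in the alpha ring.

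All 11 other cap subunits among the members rose on stimulation (median 1.43) and fell with the inhibitor (median -0.58). Psmd7, a scaffold partner of the deubiquitinase Psmd14, rose most, from 28.8, 27.2 and 23.0 CPM to 71.0, 93.9 and 92.3 CPM (1.70 ± 0.18, edgeR adjusted p = 1.92e-05). It was at 43.1, 59.6 and 69.9 CPM with the inhibitor, separate from both other groups. Psmd4, the ubiquitin receptor Rpn10, rose least, from 49.4, 48.6 and 50.5 CPM to 77.5, 91.6 and 92.6 CPM (0.82 ± 0.15, edgeR adjusted p = 8.16e-04). With the inhibitor it was at 47.7, 70.3 and 74.2 CPM, library 1 below the unstimulated range, and inhibitor and unstimulated cells were not told apart (0.37 ± 0.15, edgeR adjusted p = 0.0607), although they were without inhibitor library 1 (0.55, adjusted p = 0.00144) and without the filter on low counts (0.35, adjusted p = 0.0336).

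Psmd3, a subunit of the lid, had the largest fall of this set with the inhibitor. Its level was 62.9, 77.9 and 70.8 CPM in unstimulated, 186, 201 and 213 CPM in stimulated and 116, 123 and 127 CPM in inhibitor libraries (-0.71 ± 0.09, edgeR adjusted p = 1.95e-04). Psmd11, also of the lid, had the smallest fall, from 185, 172 and 162 CPM to 148, 135 and 141 CPM (-0.29 ± 0.09, edgeR adjusted p = 0.0236), after a rise from 72.4, 86.1 and 86.4 CPM. Both genes had separate groups.

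Several falls of the cap lost their call with single libraries left out, while the fold change kept its direction. That of Psmd11 was lost without stimulated library 1 (edgeR adjusted p = 0.0775), stimulated library 2 (0.0501), inhibitor library 2 (0.0887) or inhibitor library 3 (0.0588), and under upper-quartile scaling (0.220). That of Psmd4 (-0.45 ± 0.15, edgeR adjusted p = 0.0347) was lost without unstimulated library 1 (0.0513), stimulated library 2 (0.0924), stimulated library 3 (0.110) or inhibitor library 1 (0.0567), and under upper-quartile scaling (0.0745). Psmd7 (-0.58 ± 0.18, edgeR adjusted p = 0.0238) lost its call without stimulated library 2 (0.0734), stimulated library 3 (0.0814), inhibitor library 1 (0.0611) or inhibitor library 2 (0.0561), and Psmd13, whose exons overlap those of Sirt3 by 342 bases, without stimulated library 3 (0.0561).

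None of the 4 tested activators fell with the inhibitor. Psme1 (chr14:55578123-55581529, plus strand), the alpha part of PA28, was at 121, 110 and 114 CPM in unstimulated, 200, 203 and 196 CPM in stimulated and 241, 212 and 238 CPM in inhibitor libraries. The 3 groups did not overlap and followed in that order. It rose on stimulation (0.80 ± 0.08, edgeR adjusted p = 8.00e-06) and, by a small margin, again with the inhibitor (0.21 ± 0.07, adjusted p = 0.0467). This second rise was fragile: the edgeR adjusted p was 0.0573 with RLE scaling and 0.316 without the filter on low counts. It lost the call when any of unstimulated libraries 1 and 3, stimulated libraries 1, 2 and 3, or inhibitor libraries 1 and 3 was left out (edgeR adjusted p between 0.0574 and 0.144).

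Psme2 (chr14:55587441-55591113, minus strand), the beta part of PA28, was at 60.3, 44.3 and 50.9 CPM in unstimulated, 115, 122 and 117 CPM in stimulated and 112, 162 and 185 CPM in inhibitor libraries. It rose on stimulation (1.19 ± 0.17, edgeR adjusted p = 1.55e-04). Inhibitor library 1 lay just below the stimulated range and the other two well above it, and the difference between these groups was not called (0.37 ± 0.17, edgeR adjusted p = 0.0983). Without inhibitor library 1 it was (0.55, adjusted p = 0.00693), as it was under upper-quartile scaling (0.50, adjusted p = 0.0264), without the filter on low counts (0.34, adjusted p = 0.0321) and with a filter at a mean of 10 CPM (0.41, adjusted p = 0.0451).

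The other activators are nuclear. Psme3, PA28 gamma, was at 117, 152 and 118 CPM in unstimulated, 287, 256 and 239 CPM in stimulated and 295, 227 and 232 CPM in inhibitor libraries. It rose on stimulation (1.02 ± 0.14, edgeR adjusted p = 1.00e-04), and its stimulated and inhibitor libraries overlapped (-0.05 ± 0.14, adjusted p = 0.783). Psme4, PA200, was at 133, 150 and 134 CPM, then 187, 175 and 171 CPM, and 216, 216 and 210 CPM. Its groups were separate, and it rose on stimulation (0.35 ± 0.07, edgeR adjusted p = 0.00166) and with the inhibitor (0.27 ± 0.07, adjusted p = 0.0134).

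Both rises of Psme4 were small, and neither held throughout. The first was lost under upper-quartile scaling (0.13, edgeR adjusted p = 0.153) and with a filter at a mean of 10 CPM (0.17, adjusted p = 0.0706). The second was lost without the filter on low counts (0.23, adjusted p = 0.127) and without stimulated library 2 (0.0604), stimulated library 3 (0.0633) or inhibitor library 2 (0.0546).

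Psmf1 encodes PI31, which inhibits the core in the test tube and helps to move proteasomes in cells. It was at 42.0, 48.3 and 41.1 CPM in unstimulated, 43.7, 50.8 and 53.0 CPM in stimulated and 41.2, 45.1 and 42.4 CPM in inhibitor libraries. The groups overlapped and no comparison was called, with log2 differences of 0.17 ± 0.10, -0.20 ± 0.10 and -0.03 ± 0.10 (edgeR adjusted p = 0.182, 0.154 and 0.827). The sign of the first turned under upper-quartile scaling (-0.052) and with a filter at a mean of 10 CPM (-0.019).

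The chaperones that build the 20S core rose with it. All 4 were called on stimulation, with a median of 1.73. Psmg1 (PAC1) was at 11.1, 12.9 and 12 CPM in unstimulated, 49.9, 45.9 and 48.1 CPM in stimulated and 27.0, 23.9 and 27.2 CPM in inhibitor libraries. Its rise of 2.00 ± 0.10 (edgeR adjusted p = 1.86e-07) was the largest of any member other than Psmc3ip, and with the inhibitor it fell by 0.88 ± 0.10 (adjusted p = 9.53e-05). Psmg3 had the largest fall of the set with the inhibitor, from 8.22, 10.5 and 9.90 CPM to 3.55, 5.79 and 5.95 CPM (-0.90 ± 0.23, edgeR adjusted p = 0.00872). Its unstimulated libraries were at 2.65, 3.36 and 3.41 CPM, just below the lowest inhibitor library.

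Psmg4 (PAC4) rose less than the other 3, from 6.07, 4.71 and 6.34 CPM to 10.1, 12.4 and 13.7 CPM (1.08 ± 0.25, edgeR adjusted p = 0.00348). It was not called with the inhibitor, at 8.54, 17.0 and 15.5 CPM (0.18 ± 0.25, edgeR adjusted p = 0.586). Inhibitor library 1 lay below the stimulated range and the other two above it, and with inhibitor library 1 and unstimulated library 2 both left out the difference was called (0.44, edgeR adjusted p = 0.0480).

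The chaperones of the 19S base rose less. Psmd10 (gankyrin), the only member on the X chromosome, was at 3.84, 3.39 and 4.54 CPM in unstimulated, 8.37, 9.64 and 9.63 CPM in stimulated and 4.99, 6.27 and 6.36 CPM in inhibitor libraries (1.23 ± 0.18, edgeR adjusted p = 1.62e-04, and -0.65 ± 0.18, adjusted p = 0.0132). Psmd5 rose from 31.1, 33.7 and 29.9 CPM to 50.3, 43.2 and 48.2 CPM (0.58 ± 0.11, edgeR adjusted p = 8.68e-04), the smallest rise of this set. It was back at 28.9, 35.3 and 31.2 CPM with the inhibitor, on both sides of the unstimulated range. Psmd9 was at 10.7, 10.6 and 9.71 CPM, then 16.0, 15.5 and 17.6 CPM, and 9.92, 12.4 and 11.9 CPM.

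All 3 fell with the inhibitor, between -0.65 and -0.52. Psmd5 and Psmd9 did not differ from unstimulated cells by the test (0.01 ± 0.11, edgeR adjusted p = 0.943, and 0.14 ± 0.13, adjusted p = 0.395), and Psmd10 did (0.58 ± 0.18, adjusted p = 0.0192). That call of Psmd10 was lost without unstimulated library 1 (edgeR adjusted p = 0.0525), unstimulated library 2 (0.0567), inhibitor library 2 (0.0687) or inhibitor library 3 (0.0685), without the filter on low counts (0.0791) and with these 2 groups alone (0.0517). That of Psmg3 (0.70 ± 0.23, edgeR adjusted p = 0.0258) was lost without unstimulated library 1 (0.0890), inhibitor library 2 (0.0934) or inhibitor library 3 (0.0978), and with the 2 groups alone (0.0563).

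Set side by side, the 5 immunoproteasome genes (Psmb8, Psmb9, Psmb10, Psme1 and Psme2) had 4 that rose on stimulation, with a median of 0.98, and the 41 other tested subunits and factors had 40 that rose, with a median of 1.45. With the inhibitor 2 of the 5 fell and 1 rose (median -0.09), and 33 of the 41 fell and 1 rose (median -0.57). Of all tested genes, 32.0% rose on stimulation, and 22.8% fell and 21.7% rose with the inhibitor. Summed, the 5 genes were at 370 ± 35.8, 714 ± 26.4 and 664 ± 86.0 CPM in the 3 groups, and the others at 1860 ± 89.8, 4661 ± 77.3 and 3339 ± 313 CPM. The stimulated and inhibitor ranges of the 5 overlapped (684 to 731 and 574 to 746 CPM), and those of the others did not.

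The remaining members complete the account. Psmc3ip, which is no part of the particle, was at 1.27, 2.39 and 1.68 CPM in unstimulated, 8.37, 9.02 and 7.98 CPM in stimulated and 3.17, 3.79 and 6.11 CPM in inhibitor libraries, and rose by 2.24 ± 0.30 (edgeR adjusted p = 9.15e-05). Of its 1818 exon bases, 385 overlap those of Mlx on the other strand, which had 16236 counts over all libraries against 2060 for Psmc3ip, so some of its counts may be those of Mlx. Without it, 44 of 46 members rose, with a median of 1.38. Psma8, an alpha subunit known from the testis, had between 0 and 19 counts in a library, and Psmb11, the catalytic subunit of thymic epithelium, 0 or 4 counts. Psme2b, a near copy of Psme2, had 2 counts in unstimulated library 1 and 0 elsewhere, and reads that fit both copies could be assigned to neither with certainty.

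Of 31 other genes of the pathway, listed for ubiquitin supply, shuttling, deubiquitination, assembly and the control of proteasome genes, 30 were tested. On stimulation 18 rose and 7 fell, with a median of 0.65, beside 32.0% and 34.0% of all genes. With the inhibitor 8 rose and 11 fell, with a median of -0.21, beside 21.7% and 22.8% of all genes. Uchl5, a deubiquitinase docked on the cap, rose most on stimulation, from 19, 15.0 and 13.2 CPM to 61.6, 64.3 and 57.4 CPM (1.96 ± 0.18, edgeR adjusted p = 5.82e-06), and was at 25.7, 32.7 and 39.4 CPM with the inhibitor. Zfand2a, an arsenite-inducible partner of the proteasome, fell most, from 36.2, 23.0 and 28.8 CPM to 10.3, 8.93 and 12.7 CPM (-1.46 ± 0.21, edgeR adjusted p = 1.57e-04). With the inhibitor it was at 14.3, 18.7 and 21.6 CPM, the largest rise of the list (0.77 ± 0.21, edgeR adjusted p = 0.0129).

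Uba1, the main ubiquitin-activating enzyme, had the largest fall with the inhibitor. It was at 274, 283 and 301 CPM in unstimulated, 753, 754 and 792 CPM in stimulated and 401, 396 and 412 CPM in inhibitor libraries (-0.93 ± 0.07, edgeR adjusted p = 7.05e-06). Beside 26.3% of all genes higher and 26.1% lower against unstimulated cells, the inhibitor group had 18 genes of the list higher and 6 lower. Mafg, a small Maf protein that pairs with NRF1 and NRF2, was the highest of them, at 28.5, 38.6 and 31.3 CPM in unstimulated, 70.8, 72.4 and 74.7 CPM in stimulated and 107, 135 and 122 CPM in inhibitor libraries (1.89 ± 0.13, edgeR adjusted p = 1.42e-06). Midn, which carries proteins to the proteasome without ubiquitin, was the lowest of those called (-0.71 ± 0.10, edgeR adjusted p = 1.95e-04), at 187, 151 and 149 CPM against 99.3, 104 and 95.4 CPM.

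Some genes of the route that controls and builds the proteasome were chosen after their values had been seen. Nfe2l1, the gene of NRF1, was at 101 ± 7.99 CPM in unstimulated, 222 ± 6.10 CPM in stimulated and 263 ± 12.7 CPM in inhibitor libraries. It rose on stimulation (1.13 ± 0.08, edgeR adjusted p = 1.05e-06) and with the inhibitor (0.25 ± 0.08, adjusted p = 0.0274), where most subunit genes fell. Ddi2, the protease that frees NRF1 from the membrane, went from 113 ± 3.09 to 64.8 ± 0.876 CPM on stimulation (-0.80 ± 0.06, edgeR adjusted p = 2.53e-06) and was at 99.8 ± 1.09 CPM with the inhibitor. Nfe2l2, the gene of NRF2, also fell on stimulation (-0.89 ± 0.09, edgeR adjusted p = 1.35e-05). Pomp, the chaperone that joins the beta rings, followed the subunits, at 45.0 ± 0.682, 139 ± 15.7 and 80.3 ± 5.38 CPM (1.62 ± 0.10, edgeR adjusted p = 3.83e-07, and -0.79 ± 0.09, adjusted p = 1.22e-04).

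**Figure D4:**
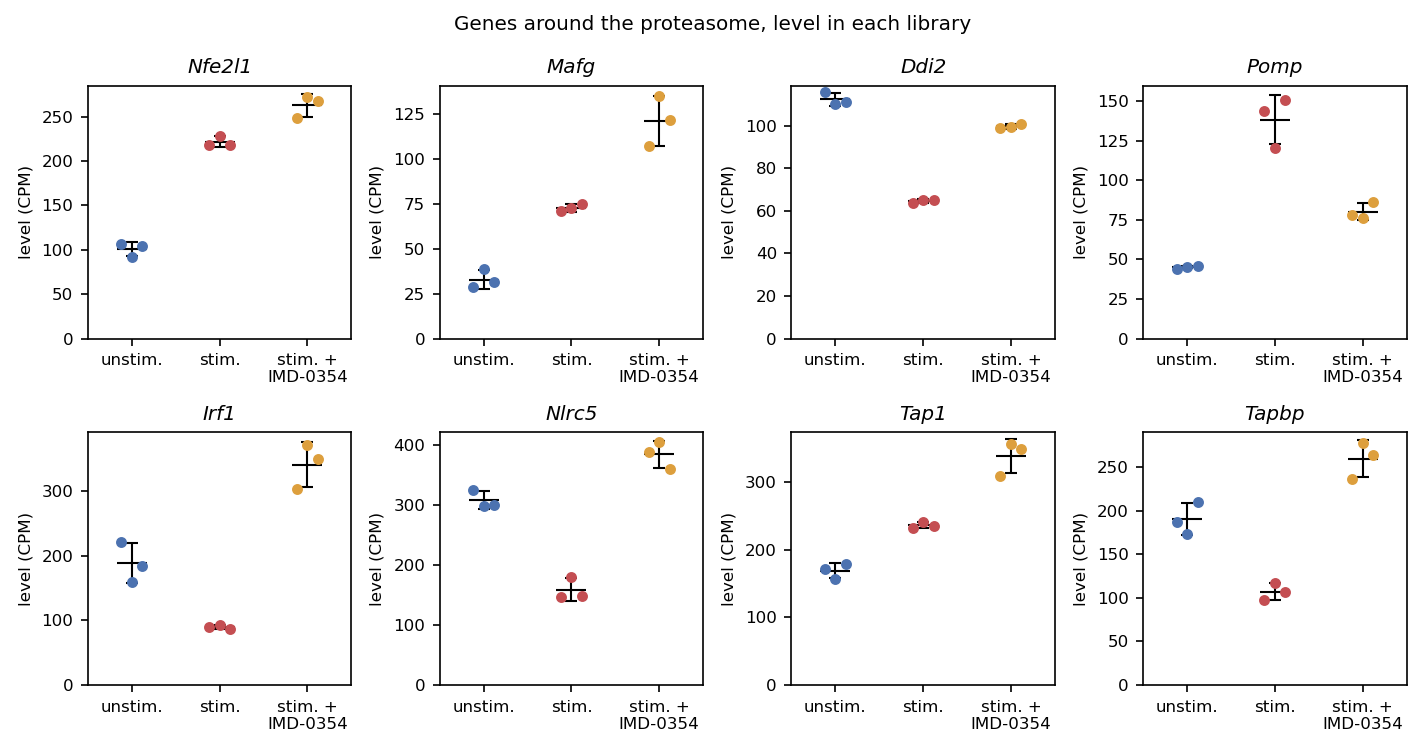
Level (CPM, y axis from 0, scaled for each gene) of genes that control or build the proteasome (Nfe2l1, Mafg, Ddi2, Pomp) and of genes around interferon response and class I loading (Irf1, Nlrc5, Tap1, Tapbp) in each library; points are libraries, bars show mean ± SD (n = 3). Pomp is highest in the stimulated libraries, and the others except Ddi2 are highest with the inhibitor.

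Peptides made by the proteasome are passed to MHC class I, and 12 genes were listed for that step. On stimulation 5 rose and 6 fell (median -0.22), where 32.0% of all genes rose and 34.0% fell. With the inhibitor 11 rose and 1 fell (median 0.63), where 21.7% of all genes rose and 22.8% fell. The list was not tested against the subunit genes. Nlrc5, the activator of class I genes, had the largest fall on stimulation, from 325, 299 and 299 CPM to 146, 180 and 149 CPM (-0.96 ± 0.10, edgeR adjusted p = 1.22e-05), and was at 388, 405 and 360 CPM with the inhibitor. Tapbp, the loading factor tapasin, had the largest rise with the inhibitor, from 97.4, 117 and 107 CPM to 237, 278 and 264 CPM (1.28 ± 0.10, edgeR adjusted p = 9.67e-06). Canx, the chaperone calnexin, had the largest rise on stimulation (1.25 ± 0.11, edgeR adjusted p = 5.82e-06) and was the gene that fell with the inhibitor (-0.52 ± 0.11, adjusted p = 0.00385).

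Tap1, the peptide transporter gene that lies beside Psmb9, was at 171, 157 and 178 CPM in unstimulated, 233, 241 and 234 CPM in stimulated and 309, 356 and 349 CPM in inhibitor libraries. The 3 groups did not overlap, and it rose in both steps (0.49 ± 0.08, edgeR adjusted p = 3.78e-04, and 0.52 ± 0.08, adjusted p = 5.81e-04). Psmb9 rose in the first step and was not called in the second, and the difference between the neighbours was not tested.

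Of 12 interferon and NF-kB factors and targets tied to the inducible subunits, 6 rose and 5 fell on stimulation (32.0% and 34.0% of all genes) and likewise 6 rose and 5 fell with the inhibitor (21.7% and 22.8% of all genes). Ifng, the cytokine that induces the immunoproteasome, had the largest rise on stimulation, from 14.1, 12.4 and 9.59 CPM to 222, 283 and 275 CPM (4.44 ± 0.22, edgeR adjusted p = 1.22e-07), and was at 111, 103 and 162 CPM with the inhibitor (-1.05 ± 0.19, adjusted p = 0.00138). Its receptor gene Ifngr1 had the largest fall (-2.00 ± 0.10, edgeR adjusted p = 1.73e-07). Irf1, a factor that acts on Psmb9 and Tap1, was at 222, 159 and 185 CPM in unstimulated, 90.3, 93.0 and 86.3 CPM in stimulated and 303, 371 and 350 CPM in inhibitor libraries, the largest rise of the list with the inhibitor (1.93 ± 0.12, edgeR adjusted p = 3.11e-06). Socs1, a brake on interferon signalling, had the largest fall there (-1.66 ± 0.24, edgeR adjusted p = 3.86e-04). No link between these factors and the inducible proteasome genes was tested.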

How the data were processed

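RNA of 9 libraries (3 per group) had been sequenced after ribosomal depletion. The authors deposited whole-number read counts per gene, with no normalization visible. STAR 2.7.1a, featureCounts and mm10 are named in the submitters' processing notes. No annotation, strand setting or mate counting is named there, nor elsewhere in the labels; they count as not given in the sources used here. Of the counts between 1 and 10, 70.6% to 78.5% per library were even numbers, so both mates of a fragment may have been counted, each as 1 read. Rows were matched to GENCODE M21 (49412 of 49671; 0 sample columns unused).

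Genes passing filterByExpr (18374) entered 1 edgeR 4.0.16 quasi-likelihood fit (R 4.3.3, TMM factors 0.925 to 1.122, 6 residual degrees of freedom, group as the only term), with Benjamini-Hochberg adjustment over all genes. The SE shown is approximate, from dividing the fold change by the root of the F statistic. The fit was also run on simulated counts with far fewer changed genes than were called here, and no result rests on that run. Alternatives were other scalings and filters, DESeq2 1.42.0, limma voom, the 2 groups compared alone, halved counts, a replicate block and each library left out. Leaving out unstimulated library 2 with inhibitor library 1, or the rows Gm26917 and Gm42418 (11.3% to 17.4% of counts), was chosen after seeing the data, as were the principal-transcript and exon-union lengths. Members and lists were chosen with earlier results of these data known. Genes named with library values were the catalytic and PA28 genes and, by role, the highest and lowest fold change in the first 2 comparisons; in other lists, the highest and lowest called gene.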

Additional observations from a re-analysis of the deposited data

How the results depend on the processing

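Of the alternatives for single genes, 2709 kept direction and call, 66 lost a call, 10 gained one and 26 reversed sign. With 1 library left out, 45 members rose and 0 fell on stimulation each time, 29 to 36 fell and 0 to 2 rose with the inhibitor, and 39 to 43 rose and 1 fell against unstimulated cells. The medians then ran from 1.36 to 1.46, -0.60 to -0.42 and 0.80 to 0.99. Stimulated libraries 2 and 3, left out singly, each left 0 members that rose with the inhibitor.

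The median on stimulation was 1.19 under upper-quartile scaling and 1.19 with genes of at least 10 CPM, where the median against unstimulated cells was 0.74. Upper-quartile scaling moved the median of all genes from -0.05 to -0.27 on stimulation and from 0.03 to 0.16 with the inhibitor. It changed the calls over all genes from 5880 higher and 6246 lower to 4865 and 7378, and from 3990 and 4192 to 4828 and 3405. The members' median with the inhibitor was -0.44 under that scaling and -0.41 with unstimulated library 2 and inhibitor library 1 both left out. The number of members that rose with the inhibitor was 1 under RLE scaling, without the filter, with the replicate block and without the rows Gm26917 and Gm42418.

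The log2 ratios of the pairs kept their sign with each library left out, over ranges of -0.77 to -0.47, 0.13 to 0.25 and -0.58 to -0.28 for Psmb8 to Psmb5 (stimulated against unstimulated, inhibitor against stimulated, inhibitor against unstimulated), -0.71 to -0.44, 0.07 to 0.35 and -0.39 to -0.31 for Psmb9 to Psmb6, and -1.87 to -1.58, 0.32 to 0.51 and -1.44 to -1.15 for Psmb10 to Psmb7.

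Every reversal was of a difference that was not called. On stimulation, Psmb10 ran from -0.15 to 0.013 with single libraries left out, turning without unstimulated library 3 or stimulated library 1, and Psmf1 was at -0.052 under upper-quartile scaling and -0.019 with genes of at least 10 CPM. With the inhibitor, Psmb9 was at 0.039 under upper-quartile scaling and 0.061 with unstimulated library 2 and inhibitor library 1 left out, and ran from -0.18 to 0.048 with single libraries left out, turning without inhibitor library 1. Psme3 was at 0.087 under upper-quartile scaling and ran from -0.19 to 0.017, turning without stimulated library 1 or inhibitor library 2, and Psmg4 ran from -0.0091 (without inhibitor library 2) to 0.43. Against unstimulated cells, Psmd5 was at -0.079 under upper-quartile scaling, -0.042 under RLE scaling, -0.012 without the filter, -0.13 with genes of at least 10 CPM, -0.042 with DESeq2, -1.2e-04 with halved counts and -0.015 without Gm26917 and Gm42418, and ran from -0.071 to 0.078 with single libraries left out. Psmd9 was at -0.0077 with genes of at least 10 CPM, and Psmf1 was at 0.058 with unstimulated library 2 and inhibitor library 1 left out and ran from -0.072 to 0.042, turning without either of these. Beyond scaling and left-out samples the cause was not tested.

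Same-numbered libraries deviated together with correlations of -0.19 to 0.14, not all above 0.1, so the numbers were not taken as pairs. Between stimulated and inhibitor libraries they were 0.144, 0.107 and 0.078, and every library there correlated best with its own number, a hint from the data and not from the design. Against unstimulated libraries that was not so. With the replicate block the falls of Psmb6 (-0.35, edgeR adjusted p = 0.0542) and Psmd11 (-0.29, adjusted p = 0.0503) and the rise of Psme1 (0.20, adjusted p = 0.0626) with the inhibitor lost their calls, and Psmd4 gained one against unstimulated cells (0.35, adjusted p = 0.0492).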

Other observations

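Another 3 genes were picked from the pathway list after their values had been seen. Rps27a, which encodes ubiquitin fused to a ribosomal protein, rose on stimulation (0.99 ± 0.24, edgeR adjusted p = 0.00432) and was not called with the inhibitor (0.02 ± 0.24, adjusted p = 0.959). Ubb, a polyubiquitin gene, was called in no comparison, with a log2 difference on stimulation of -0.06 ± 0.40 (edgeR adjusted p = 0.896). Vcp, the unfoldase that delivers ubiquitylated proteins, rose on stimulation (1.10 ± 0.10, edgeR adjusted p = 7.24e-06) and fell with the inhibitor (-0.50 ± 0.10, adjusted p = 0.00268).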
